A study of Mus musculus with 6 samples.

Results

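Protein arginine methyltransferases transfer methyl groups from S-adenosylmethionine (SAM) to arginine side chains of histones, RNA-binding proteins and transcription factors. Type I enzymes make asymmetric dimethylarginine, type II enzymes make symmetric dimethylarginine and type III enzymes stop at monomethylarginine. Prmt5, the main type II enzyme, works in the methylosome, a complex with the WD repeat protein Wdr77, and methylates Sm proteins before they are loaded onto spliceosomal RNAs. Nicotinamide N-methyltransferase (NNMT) uses the same methyl donor to methylate nicotinamide, and methylthioadenosine, a by-product of polyamine synthesis, is known to inhibit Prmt5.

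The genes described here are 8, taken by name from the 35275 rows of the deposited table: the type I genes Prmt2, Prmt3, Carm1 and Prmt6, the type II genes Prmt5 and Prmt9, the type III gene Prmt7, and Wdr77. All 8 were found and all 8 passed the filter on low values, among 10882 genes tested. They were measured by RNA sequencing in 3T3 cells, a mouse line of immortalised embryonic fibroblasts. Of 6 libraries, 3 came from cells with a control construct and 3 from cells with an NNMT overexpression construct. For 48 h both groups were kept in methionine-free DMEM to which 10 µM methionine and 10% dialyzed serum had been added. The groups were compared to find the response to NNMT. Which promoter drives the NNMT construct, from which species it comes and whether the lines are clones is not stated by the labels. The labels number the NNMT libraries 1 to 3, while the table's columns carry only the numbers 2 and 3, so the remaining column is called the unnumbered NNMT library.

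Nnmt levels were 7.60 FPKM (replicate 1), 5.25 FPKM (replicate 2) and 6.51 FPKM (replicate 3) in control cells and 15.7 FPKM (unnumbered), 15.03 FPKM (replicate 2) and 18.3 FPKM (replicate 3) in NNMT cells, so that the labels and the targeted gene run the same way. FPKM are reads per kilobase of gene, scaled to the counted reads of the library, a unit inferred from the values. Libraries held 31622291 to 39982107 recovered reads. The fibroblast marker list (Col1a1, Col1a2, Thy1, Pdgfra, Pdgfrb, Vim, S100a4 and Dcn) summed to 7032 to 7190 FPKM in control and 8764 to 9788 FPKM in NNMT libraries, with 3 genes higher and 3 lower. Epithelial markers summed to at most 0.140 FPKM, endothelial markers to at most 0.239, adipocyte markers to at most 1.12, macrophage markers to at most 2.88 and muscle markers to at most 5.35. Epcam, Krt18, Krt19, Adipoq, Myod1 and Myog were listed at 0 in all 6 libraries. In bulk RNA, fewer cells that express a gene and less of its RNA per cell cannot be told apart.

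In NNMT cells 7 of the 8 genes were higher and 1, Prmt2, was lower. Each passed the threshold of limma's test on log2(FPKM + 1) (Benjamini-Hochberg adjusted p under 0.05 over all genes tested, 3 libraries against 3), but the changes were small, from 17.5% lower to 38.7% higher. This count has to be read against a transcriptome in which most genes moved: 65.6% of all genes tested were called, 35.0% as higher and 30.6% as lower. The groups were free of overlap for all 8 genes, and for 69.9% of all genes tested. The median log2 fold change of the 8 was 0.19, beside 0.03 for all genes tested, and their median absolute change of 0.23 was close to the 0.24 of all genes tested. The plot of levels by library shows each gene in each library.

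**Figure D1:**
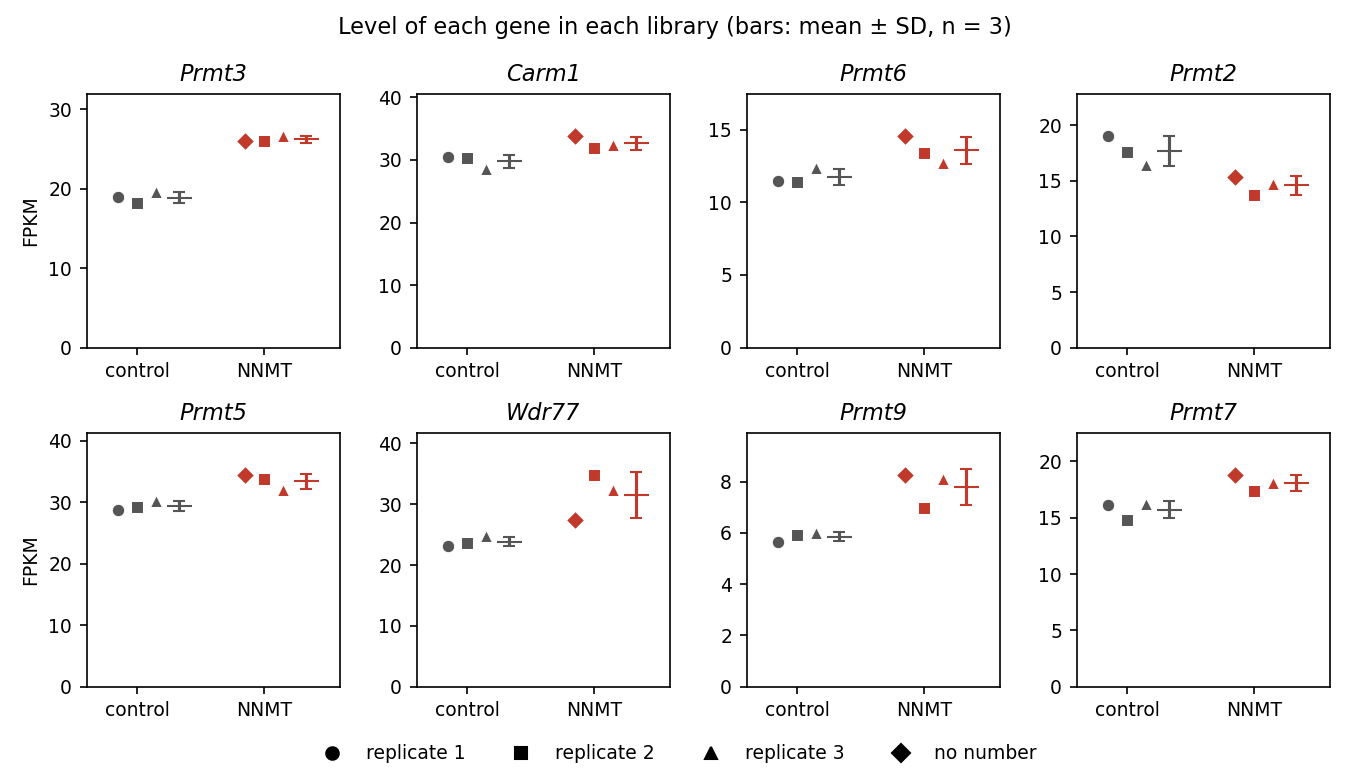
Level (FPKM, linear axes from 0) of each gene in each of the 3 control libraries (grey) and 3 NNMT libraries (red); marker shapes give the replicate number and the bars give mean ± SD. Prmt2 alone is lower in the NNMT libraries, at 13.7 to 15.3 FPKM against 16.4 to 19.0, and Wdr77 in the unnumbered NNMT library (diamond, 27.4 FPKM) lies apart from the other 2 NNMT libraries.

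Before the values by gene, the DNA just ahead of the start sites is shown for 4 genes: Prmt3 and Prmt9, 2 of the 3 genes with the largest rises, Prmt5, the catalytic part of the methylosome, and Prmt2, the gene that fell. The sequences are from RefSeq (GRCm38.p6), in the direction of transcription, and cover the 250 bases before the RefSeq start. GENCODE M21 starts Prmt5 and Prmt3 further upstream than RefSeq. The 55 bases of the window that lie inside the M21 gene are left out for Prmt5. For Prmt3 the last 12 bases shown lie inside the M21 gene and hold most of its marked E-box. Capitals mark matches, on either strand, to the 7 motifs searched: the E-box CACGTG, the CCAAT box CCAAT, the GC box GGGCGG, the cAMP response element TGACGTCA, the ETS motif CCGGAAG, the E2F motif TTTGGCGC and the TATA motif TATAAA. No motif here contains another.
Prmt3 (chr7:49778108-49778357, plus strand): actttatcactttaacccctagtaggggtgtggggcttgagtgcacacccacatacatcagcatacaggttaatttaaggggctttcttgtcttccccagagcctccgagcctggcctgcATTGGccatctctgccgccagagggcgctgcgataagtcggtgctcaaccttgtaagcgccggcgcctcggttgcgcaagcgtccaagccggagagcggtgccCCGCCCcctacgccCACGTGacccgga
Prmt9 (chr8:77549147-77549396, plus strand): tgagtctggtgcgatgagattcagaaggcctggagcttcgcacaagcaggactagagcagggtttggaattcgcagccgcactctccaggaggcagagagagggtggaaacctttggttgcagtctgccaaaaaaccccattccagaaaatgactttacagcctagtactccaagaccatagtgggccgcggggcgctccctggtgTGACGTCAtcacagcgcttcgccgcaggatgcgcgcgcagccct
Prmt5 (chr14:54517526-54517720, minus strand): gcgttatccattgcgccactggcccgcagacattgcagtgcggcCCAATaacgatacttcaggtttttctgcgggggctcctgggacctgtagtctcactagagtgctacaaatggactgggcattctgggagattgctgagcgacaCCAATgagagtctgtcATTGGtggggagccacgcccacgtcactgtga
Prmt2 (chr10:76237866-76238115, minus strand): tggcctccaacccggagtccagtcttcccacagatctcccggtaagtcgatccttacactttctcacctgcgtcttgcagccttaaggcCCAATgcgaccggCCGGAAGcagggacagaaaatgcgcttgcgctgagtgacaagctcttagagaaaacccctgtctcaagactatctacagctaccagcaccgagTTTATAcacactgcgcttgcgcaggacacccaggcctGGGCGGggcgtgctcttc
No single motif was held by all of the genes that rose. Of the 8 genes, 7 had an entry in the RefSeq promoter table; Carm1 had none. Over their 250 bases, 4 of 7 held a GC box and 3 of 7 a CCAAT box, beside 32.7% and 33.8% of all 32851 entries. For Prmt7 and Wdr77, 118 and 129 of these bases lie inside the M21 gene. Outside that part Prmt7 held no GC box, while Wdr77 still did. The Prmt5 window held 4 CCAAT boxes in either orientation, 3 of them in the part shown. The E-box was present in 1 of 7 windows (Prmt3) and in 6.02% of all entries, and the cAMP response element was present in 1 of 7 (Prmt9) and in 1.55%. The Prmt2 window held the ETS motif and the TATA motif, each found in no other of the 7 and in 6.91% and 12.4% of all entries. The E2F motif was in none of the 7 and in 0.417% of entries. The windows were 54.0% to 70.0% G or C, beside a median of 52.4%. A match is a run of letters and was not tested as a binding site.

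Prmt5 (ENSMUSG00000023110, chromosome 14, 54507187 to 54517525 in GRCm38) rose by a small amount. Control replicates 1, 2 and 3 held 28.7, 29.2 and 30.2 FPKM. Its NNMT levels were 34.4 FPKM (unnumbered), 33.7 FPKM (replicate 2) and 31.9 FPKM (replicate 3). All NNMT libraries were thus above all control libraries, with the closest pair 1.70 FPKM apart. The means were 29.4 ± 0.769 and 33.3 ± 1.29 FPKM (SD, n = 3), 13.5% higher, with a log2 fold change of 0.18 (95% interval 0.07 to 0.28, limma adjusted p = 0.00775).

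Wdr77 (ENSMUSG00000000561, chromosome 3, 105959369 to 105970037), which binds Prmt5 and presents substrates to it, rose more on average and less evenly. The control replicates held 23.2, 23.7 and 24.7 FPKM. The unnumbered NNMT library held 27.4 FPKM, replicate 2 held 34.8 and replicate 3 held 32.4. The groups did not overlap, and the unnumbered library lay closest to the control level, so that the NNMT libraries spread more for Wdr77 (12.1% of the mean) than for any of the other 7 genes. The means were 23.8 ± 0.789 and 31.5 ± 3.81 FPKM, a log2 fold change of 0.38 (95% interval 0.21 to 0.55, adjusted p = 0.00141), and 0.48 without the unnumbered library.

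The ratio of Wdr77 to Prmt5 within a library was 0.806, 0.811 and 0.818 in the control replicates. In NNMT cells it was 0.795 (unnumbered), 1.03 (replicate 2) and 1.01 (replicate 3). The unnumbered library thus had the ratio of the control cells and the other 2 NNMT libraries a higher one, and the groups overlapped. On the log2 scale the ratio was 0.20 higher in NNMT cells (exact two-sided permutation p = 0.4, and 0.4 after Benjamini-Hochberg adjustment over 4 ratios). With 3 libraries against 3 this test cannot give less than 0.1, so no ratio could pass 0.05. Annotated exons of Wdr77 overlap those of the ATP synthase subunit gene Atp5f1 on the opposite strand, and whether counting used strand is not known. Atp5f1 stood at 68.1 ± 2.81 and 74.1 ± 4.64 FPKM (log2 fold change 0.12, limma adjusted p = 0.0854).

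The list of methylosome genes was completed by the adaptors Clns1a, Riok1 and Coprs, which bring Sm proteins, other substrates and histones to Prmt5. Of the 5 genes, 4 rose and none fell (80.0%, beside 65.6% called and 35.0% called higher among all genes tested; median log2 fold change 0.19). Clns1a went from 38.6 ± 1.66 to 47.2 ± 2.73 FPKM (log2 fold change 0.28, adjusted p = 0.00113) and Riok1 from 12.7 ± 0.340 to 14.6 ± 0.270 FPKM (0.19, adjusted p = 0.00496). Coprs stood at 24.0 ± 1.84 and 22.8 ± 1.08 FPKM (-0.07, adjusted p = 0.332). The list holds Prmt5 and Wdr77 themselves, so only Clns1a and Riok1 add to the count.

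Prmt9 (ENSMUSG00000037134, chromosome 8, 77549397 to 77581338), the other type II enzyme, which methylates the splicing factor Sf3b2, had the lowest level of the 8 genes. Control replicates 1, 2 and 3 held 5.64, 5.93 and 5.99 FPKM. Its NNMT levels were 8.27 FPKM (unnumbered), 6.98 FPKM (replicate 2) and 8.10 FPKM (replicate 3). Every NNMT library was higher, and replicate 2 was the lowest of them. The means of 5.85 ± 0.184 and 7.78 ± 0.699 FPKM differed by 32.9% (log2 fold change 0.35, 95% interval 0.21 to 0.50, adjusted p = 0.000903). At this low level the log2 value depends on the pseudocount, at 0.40 with 0.1 and 0.16 with 10 (limma adjusted p = 0.000912 and 0.00102). Its substrate gene Sf3b2 stood at 143 ± 3.07 and 150 ± 5.11 FPKM (adjusted p = 0.199).

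Among the type I enzymes Prmt3 (ENSMUSG00000030505, chromosome 7, 49778346 to 49858265), a cytosolic enzyme that methylates the ribosomal protein Rps2, had the largest change of the 8 genes. The control replicates stood at 18.9, 18.2 and 19.5 FPKM. The unnumbered NNMT library stood at 26.0 FPKM, replicate 2 at 26.0 and replicate 3 at 26.6. The NNMT libraries were within 1.51% of their mean by SD and lay 6.40 FPKM or more above every control library. The log2 fold change was 0.45 (95% interval 0.35 to 0.56, adjusted p = 1.46e-05), from 18.9 ± 0.688 to 26.2 ± 0.396 FPKM. Of all genes tested, 11.7% had a higher log2 fold change. Rps2 itself fell from 1246 ± 31.4 to 819 ± 38.3 FPKM (log2 fold change -0.61, adjusted p = 2.21e-06); copies of ribosomal protein genes elsewhere in the genome make its level less certain.

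Carm1 (ENSMUSG00000032185, chromosome 9, 21546894 to 21592623), a nuclear coactivator that methylates histone H3 and splicing factors, changed least. Control replicates 1, 2 and 3 had 30.4, 30.3 and 28.6 FPKM. Its NNMT levels were 33.9 FPKM (unnumbered), 31.9 FPKM (replicate 2) and 32.4 FPKM (replicate 3). The groups did not overlap, with 1.44 FPKM between the closest libraries. The means were 29.8 ± 0.998 and 32.7 ± 1.03 FPKM, a log2 fold change of 0.13 (95% interval 0.02 to 0.24, adjusted p = 0.0327). This call was lost in 12 of 18 other settings, among them medians of ratios scaling (log2 fold change 0.10, adjusted p = 0.0934), quantile normalization (0.10, adjusted p = 0.104) and limma-voom on recovered reads (0.090, adjusted p = 0.152). It was also lost without control replicate 1, 2 or 3 (adjusted p = 0.0515, 0.0606 and 0.140), without the unnumbered NNMT library (0.0726) and without NNMT replicate 3 (0.0616).

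Prmt6 (ENSMUSG00000049300, chromosome 3, 110246109 to 110250998), a nuclear enzyme that methylates histone H3 near its amino terminus, had the narrowest gap between the groups. Control replicates 1, 2 and 3 held 11.4, 11.4 and 12.4 FPKM. The unnumbered NNMT library held 14.6 FPKM, replicate 2 held 13.4 and replicate 3 held 12.7. The highest control library and the lowest NNMT library, both numbered 3, were 0.343 FPKM apart. The means were 11.8 ± 0.551 and 13.6 ± 0.929 FPKM (log2 fold change 0.19, 95% interval 0.06 to 0.32, adjusted p = 0.0165), and the call was lost in 5 of 18 other settings. These were the fits without control replicate 1 (0.17, adjusted p = 0.0578) or 2 (0.17, adjusted p = 0.061), both limma fits on libraries 2 and 3 of each group alone (0.12 in each, adjusted p = 0.0864 with a replicate block and 0.122 without), and the stricter threshold of 0.01.

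Prmt2 (ENSMUSG00000020230, chromosome 10, 76207222 to 76237865), an enzyme with an SH3 domain and weak activity of its own, fell. Its control replicates held 19.0, 17.6 and 16.4 FPKM, a spread of 7.47% of the mean that was the widest of the 8 genes among the control libraries. The unnumbered NNMT library held 15.3 FPKM, replicate 2 held 13.7 and replicate 3 held 14.7. Even the lowest control library was 1.10 FPKM above the highest NNMT library. The means were 17.7 ± 1.32 and 14.6 ± 0.822 FPKM, 1.21-fold lower in NNMT cells (log2 fold change -0.26, 95% interval -0.40 to -0.12, adjusted p = 0.00442).

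Prmt7 (ENSMUSG00000060098, chromosome 8, 106210936 to 106252794), the type III enzyme, rose by about as much as Prmt5 and Prmt6. Control replicates 1, 2 and 3 held 16.2, 14.8 and 16.2 FPKM. Its NNMT levels were 18.8 FPKM (unnumbered), 17.4 FPKM (replicate 2) and 18.1 FPKM (replicate 3). All NNMT libraries were higher, by at least 1.16 FPKM. The means were 15.7 ± 0.780 and 18.1 ± 0.725 FPKM (log2 fold change 0.19, 95% interval 0.07 to 0.31, adjusted p = 0.00949). Annotated exons of Prmt7 and Carm1 overlap those of Smpd3 and Yipf2 on the opposite strands, which stood much lower, at 2.65 ± 0.113 and 2.08 ± 0.171 FPKM in control cells, and rose (log2 fold change 0.39, adjusted p = 0.000445, and 0.55, adjusted p = 0.000135).

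An exact permutation test (two-sided) on each of the 8 genes alone gave p = 0.1 every time, and 3 libraries against 3 cannot give less. Each gene rested on 737 to 5274 recovered reads per library, so that counting error was 1.38% to 3.68% of a value. The spread between libraries of a group was 1.51% to 12.1%. A pseudocount of 10 in place of 1 also lowered the log2 fold changes of Prmt6 (to 0.12), Prmt7 (to 0.13) and Prmt2 (to -0.17) by more than 1.5 times, with the calls kept. The labels speak of biological replicates without saying whether each came from its own transduction, so the p-values measure only the spread between these samples, which may be technical.

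**Figure D2:**
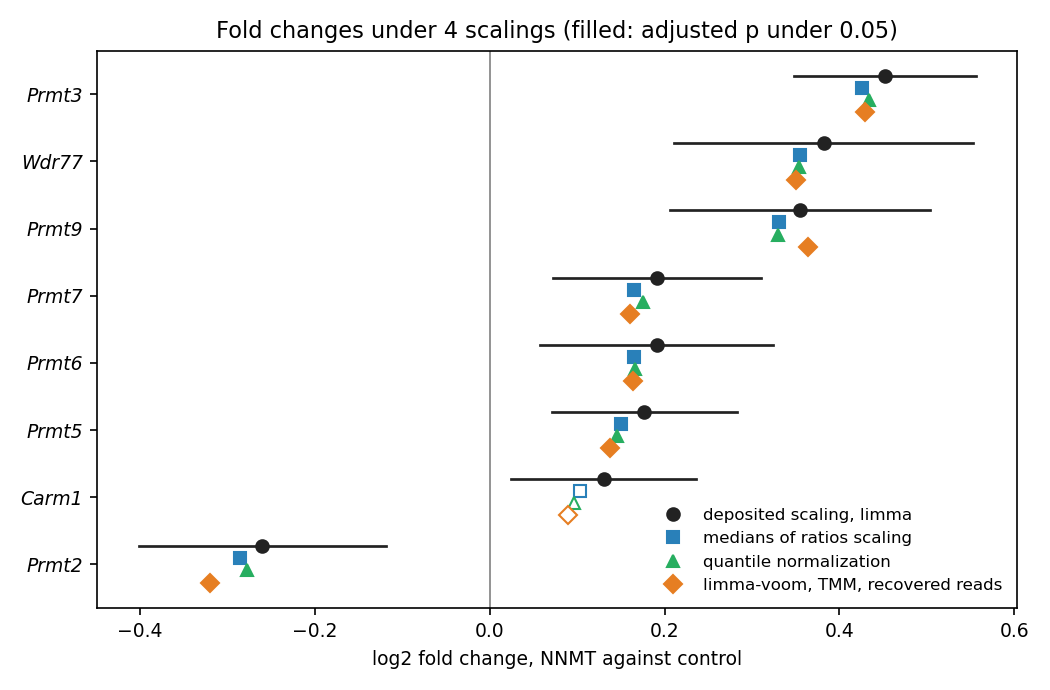
Log2 fold change (NNMT against control) of each gene under the deposited scaling with its 95% interval (black) and under 3 other scalings or models; filled markers have an adjusted p under 0.05. Prmt3 stays between 0.43 and 0.45 and Prmt2 stays below 0, while Carm1 (0.090 to 0.13) is filled only under the deposited scaling.

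Per kilobase, Carm1 and Prmt5 were the most abundant of the 8 in control cells (29.8 and 29.4 FPKM) and their ranges overlapped. They were followed by Wdr77, then by Prmt3 and Prmt2, whose ranges overlapped, then by Prmt7, Prmt6 and Prmt9, each separated from the next. In NNMT cells Prmt5, Carm1 and Wdr77 led with overlapping ranges, and Prmt3 stood clear of those above and below. Prmt7 now stood above Prmt2, and the ranges of Prmt2 and Prmt6 overlapped. The ratio of Prmt3 to Prmt2 went from 0.995, 1.03 and 1.19 in control replicates 1, 2 and 3 to 1.70, 1.90 and 1.81 in the NNMT libraries. The groups did not overlap for this ratio (difference of 0.71 on the log2 scale, exact permutation p = 0.1, adjusted p = 0.133 over 4 ratios). The other 2 ratios taken, Prmt9 to Prmt5 and Prmt3 to Carm1, were 0.18 and 0.32 higher with the same p-values.

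Summed over the 7 enzymes, the level was 127 to 130 FPKM in the control libraries and 143 to 151 FPKM in the NNMT libraries. Among these 7 enzymes the split by type hardly moved. Type I enzymes made up 60.5 ± 0.909% of the sum in control and 59.5 ± 0.264% in NNMT cells, type II enzymes 27.3 ± 0.845% and 28.1 ± 0.404%, and type III 12.2 ± 0.479% and 12.4 ± 0.198%. As a share of the same sum over 7 enzymes, Prmt3 went from 14.6 ± 0.434% to 17.9 ± 0.662% and Prmt2 from 13.7 ± 0.968% to 9.96 ± 0.343%. Prmt8, a membrane-bound type I enzyme of the brain, had 0.0108 FPKM on average in control libraries and was listed at 0 in all NNMT libraries. Prmt1 was not analysed here and is not in the sums, so the split by type holds for these 7 enzymes alone.

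Each gene was also set beside its neighbours on the chromosome, the other tested genes within 5 Mb of its middle. The log2 fold changes of Prmt7 (0.19) and Carm1 (0.13) were close to the medians of 90 and 63 neighbours (0.21 and 0.16). Those of Prmt6 (0.19) and Prmt9 (0.35) lay in windows whose medians were also above 0 (0.12 over 37 genes and 0.23 over 23). Prmt5 (0.18) and Wdr77 (0.38) stood above windows with medians of 0.06 over 82 genes and 0.08 over 62. Prmt6 and Wdr77 lie within 5 Mb of each other on chromosome 3, so each is in the other's window and these windows overlap. Prmt2 (-0.26) lay below its 120 neighbours (-0.07), of which 48 fell and 33 rose. Prmt3 differed most from its surroundings: it rose by 0.45 where the median of 63 neighbours was -0.14, with 32 lower and 12 higher. What part the surroundings have in the change of a gene was not tested.

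**Figure D3:**
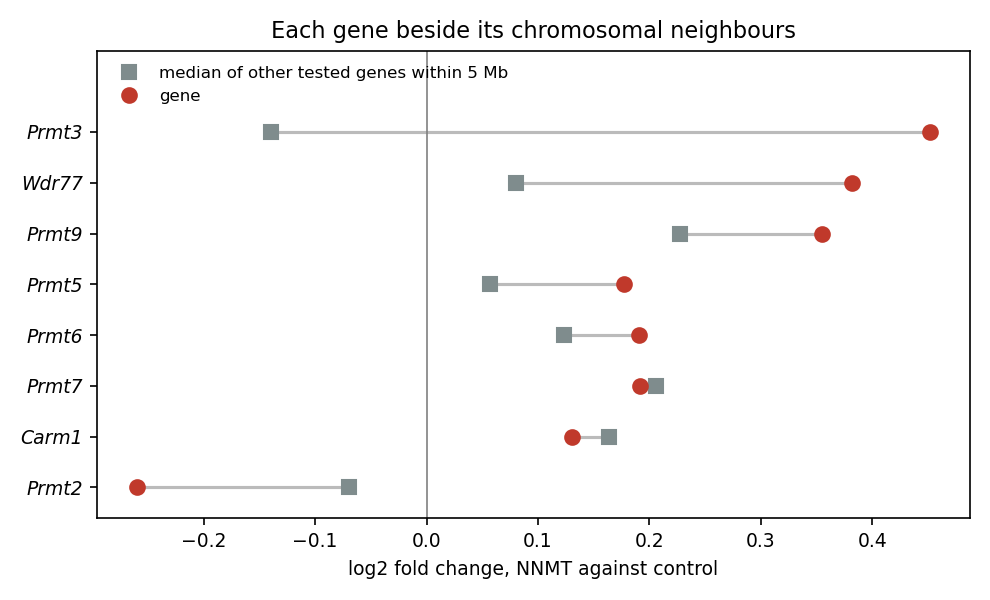
Log2 fold change (NNMT against control) of each gene (red circles) and the median over the other tested genes within 5 Mb (grey squares). Prmt3 and its neighbours lie on opposite sides of 0, while Prmt7 and Carm1 lie within 0.04 of theirs.

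The genes whose levels ran most like those of Prmt3 over the 6 libraries were Derl1, a protein of endoplasmic reticulum degradation, Prdm15, a zinc finger gene, and Cryzl1 (Pearson r = 0.999 for each, on log2(FPKM + 1)). They went from 37.7 ± 1.18 to 53.7 ± 1.17, from 2.97 ± 0.0798 to 4.10 ± 0.0815 and from 8.54 ± 0.576 to 16.4 ± 0.653 FPKM. Such likeness is common here, since the libraries form 2 groups: 1901 genes, 17.5% of those tested, had r over 0.95 with Prmt3.

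The Sm proteins, only some of which Prmt5 methylates, and the SMN complex, which reads that mark and loads them onto RNA, had a median log2 fold change of -0.16. Of 15 tested genes of the 17 listed, 5 fell (33.3%, close to the 30.6% of all genes tested) and 1 rose (6.67%, beside 35.0% of all genes tested). Snrpf and Gemin4 were not tested, at 0.0779 and 0.116 FPKM on average in control cells. Why the Sm gene Snrpf read near 0 was not tested. Snrpb, which encodes Sm protein B, fell from 147 ± 0.968 to 99.3 ± 4.82 FPKM (log2 fold change -0.57, limma adjusted p = 3.38e-06). Snrpd2, a core Sm protein, fell from 320.3 ± 11.9 to 239 ± 16.3 FPKM (-0.42, adjusted p = 9.31e-05). The Sm genes Snrpd1 (-0.19, limma adjusted p = 0.167) and Snrpd3 (0.01, limma adjusted p = 0.837) were not called. Gemin7 fell from 45.1 ± 2.20 to 35.3 ± 2.26 FPKM (-0.34, adjusted p = 0.000462). Gemin5, which recognises the RNA, rose from 20.5 ± 0.201 to 25.0 ± 0.864 FPKM (0.28, adjusted p = 0.000392). Smn1 stood at 19.4 ± 0.596 and 22.5 ± 2.93 FPKM (0.19, adjusted p = 0.0547).

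Genes of other proteins known to carry methylated arginine moved in both directions. Of 25 tested, 5 rose and 11 fell (median -0.05), and the called share of 64.0% was close to the 65.6% of all genes tested. Besides Rps2, Med12, an X-linked Mediator subunit methylated by Carm1, fell from 13.4 ± 0.803 to 7.39 ± 0.0994 FPKM (-0.78, adjusted p = 1.02e-06). Fbl, the nucleolar RNA methyltransferase fibrillarin, fell from 224 ± 3.25 to 168 ± 10.3 FPKM (-0.42, adjusted p = 5.23e-05). Smarcc1, a chromatin remodelling subunit that Carm1 methylates, rose from 33.9 ± 0.956 to 46.7 ± 0.331 FPKM (0.45, adjusted p = 8.86e-06).

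Of the Tudor domain genes, whose products bind methylated arginine, 7 of 12 were tested. Of these 3 rose and none fell (median 0.19), a called share of 42.9% beside 65.6% called and 35.0% called higher among all genes tested. Snd1, a nuclease with a Tudor domain, went from 120 ± 1.67 to 149 ± 5.45 FPKM (0.31, adjusted p = 0.000185). Tdrkh went from 6.67 ± 0.274 to 8.37 ± 0.606 FPKM (0.29, adjusted p = 0.00203) and Akap1, of the mitochondrial surface, from 27.5 ± 0.350 to 31.9 ± 1.18 FPKM (0.21, adjusted p = 0.0025). The 5 not tested were germline Tudor genes at or near 0 (Tdrd1, Tdrd5, Tdrd6, Tdrd9 and Tdrd12). Smn1 belongs to this list and to that of the SMN complex.

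Ddah1, a hydrolase that breaks down free asymmetric dimethylarginine, and the related gene Ddah2 both fell. Ddah1 went from 33.2 ± 1.62 to 26.9 ± 3.40 FPKM (-0.30, adjusted p = 0.00661) and Ddah2 from 75.3 ± 3.51 to 62.0 ± 6.24 FPKM (-0.28, adjusted p = 0.00537). Jmjd6, a hydroxylase also described as an arginine demethylase, stood at 12.4 ± 0.386 and 12.5 ± 0.869 FPKM (0.01, adjusted p = 0.912). The peptidylarginine deiminases Padi1, Padi2, Padi3, Padi4 and Padi6 and the aminotransferase Agxt2 were at or near 0, so that 3 of the 9 genes of this list were tested. Of these 3, 2 were called, both lower (66.7%, beside 65.6% called and 30.6% called lower among all genes tested).

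Among 7 regulators and partners, 3 fell and none rose (median -0.08). Their called share of 42.9% stood beside 65.6% called and 30.6% called lower among all genes tested. Ccnd1, the cyclin D1 gene, whose kinase complex phosphorylates Wdr77, fell from 65.5 ± 1.99 to 32.8 ± 4.43 FPKM (-0.98, adjusted p = 2.66e-06). The p160 coactivators Ncoa2 and Ncoa1, which recruit Carm1 to nuclear receptors, fell by 0.32 (adjusted p = 0.000492) and by 0.18 (adjusted p = 0.0295) on the log2 scale.

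Of 8 tested genes that make or use SAM or handle its products, 5 fell and 1, Nnmt, rose (median -0.28). The called share was 75.0% and the share called lower 62.5%, beside 65.6% and 30.6% of all genes tested. Mtap, on chromosome 4, which clears methylthioadenosine, fell from 165 ± 5.49 to 89.7 ± 3.06 FPKM (-0.87, adjusted p = 1.72e-07). Sms, the X-linked spermine synthase, which produces it, fell from 24.9 ± 1.43 to 10.2 ± 0.234 FPKM (-1.21, adjusted p = 4.42e-08). Ahcy, which clears S-adenosylhomocysteine, a product that inhibits methyltransferases, fell from 74.1 ± 1.95 to 56.4 ± 3.09 FPKM (-0.39, adjusted p = 8.20e-05). The SAM synthetase genes Mat2a and Mat2b were not called. Mat2a stood at 94.6 ± 6.91 and 96.2 ± 11.3 FPKM (0.02, limma adjusted p = 0.835). Mat2b stood at 21.3 ± 1.39 and 20.9 ± 0.945 FPKM (-0.02, limma adjusted p = 0.745).

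Genes of cell division fell in the same libraries in which 7 of the 8 genes rose. Of 17 proliferation genes 14 fell and none rose (82.4%, beside 65.6% called and 30.6% called lower among all genes tested, median -0.48). Their summed level was 1059 to 1087 FPKM in control and 759 to 865 FPKM in NNMT libraries. Cdc20 fell from 112 ± 2.62 to 45.3 ± 7.35 FPKM, Mki67 from 31.8 ± 3.12 to 17.5 ± 1.98, Bub1 from 18.4 ± 0.561 to 10.2 ± 1.51 and Pcna from 152 ± 5.82 to 108 ± 2.97 (limma adjusted p from 9.31e-07 for Cdc20 to 2.05e-05 for Bub1). Their part in the changes of the arginine methyltransferase genes was not tested.

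**Figure D4:**
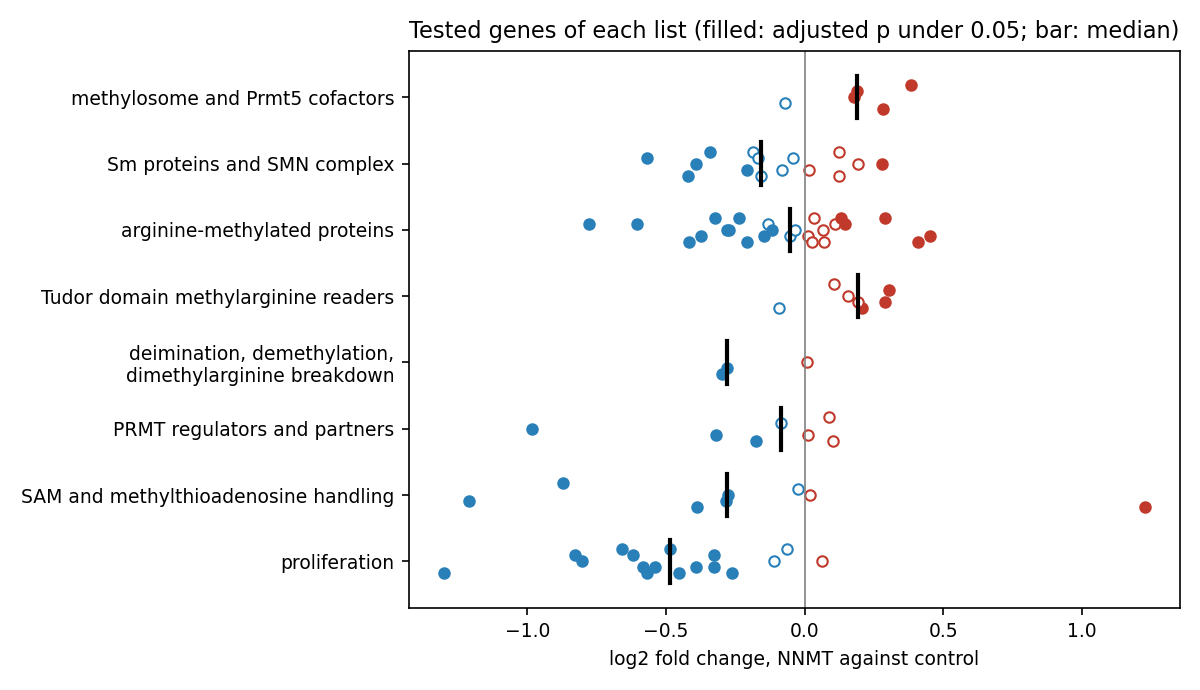
Log2 fold change (NNMT against control) of each tested gene of 8 lists; filled points have an adjusted p under 0.05, red points are above 0, blue points below, and the black bars are medians. The medians of the methylosome list (0.19) and the Tudor list (0.19) lie to the right of 0, and that of the proliferation list (-0.48) lies furthest to the left.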

How the data were processed

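RNA was extracted with a Qiagen column kit and libraries were made with NEB reagents, per the labels' protocols. The tools named are CASAVA and STAR 2.5 with genome build mm10, per the submitters' processing notes. The read counter, annotation release and strandedness of the counting are not stated there. The authors deposited 1 table of values without a unit, which behave as FPKM, that is, reads per gene divided by gene length and library total. For all 20528 genes above 0, whole reads were recovered within 0.01 of a read, for 71.1% with the length of the longest GENCODE M21 transcript. For 4800 genes, none of the 8 described, no annotated length served and the smallest length that gives whole reads was taken, so their reads are whole by construction. These are reads or fragments, which the files do not tell apart. Symbols and coordinates are from GENCODE M21 (GRCm38). The 10882 genes averaging 1 FPKM or more were tested on log2(FPKM + 1), a scale that understates changes of low genes, with limma 3.58.1 in R 4.3.3 (trend, robust, two-sided, Benjamini-Hochberg, 0.05). The script was tested on simulated data.

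The members and lists were chosen with earlier results of these data known. All 8 members are named. From each list up to 4 called genes with the smallest adjusted p are named, and for Prmt3, the member with the largest change, the 3 protein-coding genes with the highest Pearson r. Coprs, Smn1, Snrpd1, Snrpd3, Sf3b2, Jmjd6, Mat2a, Mat2b, the overlapping genes and the genes at or near 0 were named after their values were seen. Alternatives were other scalings, filters, pseudocounts and thresholds, limma settings, limma-voom with TMM on recovered reads, each library left out, and a replicate block. Libraries of a group differed beyond counting error (chi-square per degree of freedom 5.41 to 18.8).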

Additional observations from a re-analysis of the deposited data

How the results depend on the processing

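Under 18 alternatives no gene of the 8 changed direction, and Prmt2, Prmt3, Prmt7, Prmt9 and Wdr77 kept an adjusted p under the threshold of each. Carm1 missed the threshold when low genes were not filtered out (log2 fold change 0.13), with quantile normalization (0.10), medians of ratios scaling (0.10) and limma-voom (0.090), and at an adjusted p under 0.01 (0.13). At that stricter threshold 6 of the 8 genes were called, beside 5754 of all 10882 genes tested. Prmt6 (0.19) was the other gene of the 8 lost. With 1 library left out at a time, Carm1 ranged from 0.10 to 0.15 and lost its call in 5 of 6 cases, and Prmt6 ranged from 0.14 to 0.23 and lost it in 2. Only libraries 2 and 3 of each group carry shared replicate numbers, and nothing says that equal numbers share a culture. A replicate block over these 4 libraries called 6 of the 8 genes, without Prmt6 (0.12) and Carm1 (0.12), and 7110 genes in all. The same 4 libraries without the block, a setting added after the data were seen, called 5 of the 8, without Prmt5 (0.14), Prmt6 (0.12) and Carm1 (0.12), and 6629 genes in all. Beside these totals stand the 7140 genes called in the main fit, 65.6% of all genes tested there. Deviations from the group means correlated at 0.21 for libraries numbered 2 and at 0.11 for those numbered 3, within the range of -0.38 to 0.31 over the other pairs, so these values do not tell equal numbers from unequal ones. Over all alternatives 5492 to 7911 genes were called, beside 7140, and 47 to 58 genes of the lists, beside 54. Counting error of the 8 genes was at most 3.68% of a value, which for Prmt9 in control cells and Prmt3 in NNMT cells is about as large as the spread between libraries (3.14% and 1.51%). How depth or more libraries would change the calls was not tested.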
